A study of Arabidopsis thaliana with 12 samples.

Results

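The change in transcript levels with arsenate in hypoxic roots is described here across 16550 genes. Wild-type Col-0 plants of Arabidopsis thaliana were grown in hydroponic culture, and their roots were taken at an age of 39 days, after 7 days of treatment, with 3 arrays per group. The groups were combination (250 µM arsenate in hypoxic nutrient medium), hypoxia (the same medium kind without arsenate), arsenic (250 µM arsenate without hypoxia) and control (untreated). The comparison is that of the 3 combination arrays with the 3 hypoxia arrays, 6 of the 12 arrays, so both of its groups shared the hypoxic medium and differed in arsenate. The labels describe the replicates as independent, and the oxygen content of the medium is not given in the sources used here. The genes were all those with a table row of their own, 1805 with a symbol and 14745 known here by a locus code alone, out of 38408 rows.

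Arsenate is taken up by roots through phosphate transporters, is reduced to arsenite inside the cell, and arsenite binds thiols and is complexed by glutathione and phytochelatins. Oxygen shortage stabilises transcription factors that switch roots to fermentation and sets off a conserved set of hypoxia genes. Disturbed mitochondria and misfolded proteins are each known to induce their own gene sets, the mitochondrial dysfunction stimulon and the heat shock proteins.

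The values are deposited log2 signals, so a difference of 1 is a change of 2-fold, and a fold in the text is 2 to the power of the log2 difference. A gene passed where limma's adjusted p (fitted over all 12 arrays, Benjamini-Hochberg over all genes) was at most 0.05, and "rose" and "fell" are used for such genes. The array medians ran from 4.87 to 5.06, and arrays within the combination group or the hypoxia group correlated across genes at 0.972 to 0.988, against 0.962 to 0.982 for a combination array with a hypoxia array. These ranges overlapped. The median SD over genes was 0.207 in combination roots, 0.232 in hypoxia roots, 0.183 in arsenic roots and 0.166 in control roots. The root marker PYK10, a beta-glucosidase of root ER bodies and the 1 measured gene of 14 root markers, had 10.25, 10.95 and 11.14 in combination roots, against 10.79, 11.29 and 10.93 in hypoxia roots. In bulk samples such as these, fewer cells of a type and less RNA per cell cannot be told apart. Of the 14 green tissue markers, RCA, PSAN and PRK were measured, with means of 5.72, 3.04 and 2.35 in combination roots, against 5.94, 3.27 and 2.09 in hypoxia roots.

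Arsenate in hypoxic roots was accompanied by a change in 573 genes (3.46% of those tested), of which 311 rose (1.88%) and 262 fell (1.58%). The falls were the larger changes. Their median was -1.13, against 0.84 for the rises and -0.005 for all genes, and 168 of them reached 1 on the log2 scale, against 86 of the rises. A change of at least 2 was found for 29 falls and 3 rises, and a change of at least 3 for 8 falls and 1 rise. Genes with a symbol passed in 79 of 1805 cases (4.38%, 42 up and 37 down) and locus-coded genes in 494 of 14745 (3.35%, 269 up and 225 down). The combination and hypoxia arrays did not overlap in 569 of the 573, where 20.3% of all genes had no overlap.

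These counts rested on pooling the spread over the 4 groups and on single arrays. With the 6 combination and hypoxia arrays fitted alone 30 genes passed (11 rose, 19 fell), all among the 573. Leaving out combination replicate 2 left 101 genes, combination replicate 3 left 194 and hypoxia replicate 2 left 184, whereas 1000 passed without combination replicate 1 and 888 without hypoxia replicate 1. In 235 of the 311 rises (75.6%) and 161 of the 262 falls (61.5%), combination replicate 1 was the combination array nearest to the hypoxia arrays. There were 94 genes (42 rises, 52 falls) that passed in each of the 6 fits without 1 array of these groups, 9 of them with a symbol.

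Among genes with a symbol, the largest rises included subunits and helicases that act on DNA, chromatin and RNA. NRPC1, the largest subunit of RNA polymerase III, had 7.14, 7.95 and 8.72 in combination roots, against 6.40, 6.05 and 6.67 in hypoxia roots. Its means were 7.94 ± 0.79 and 6.37 ± 0.31 (SD, n = 3 each), a rise of 1.56 ± 0.31 (SE, limma adjusted p = 0.018). The combination arrays lay above the hypoxia arrays, as the choice of these genes required, and the first of them was closest. FANCM, a DNA helicase that limits meiotic crossovers, had 4.94, 5.93 and 6.27 in combination roots, against 4.34, 4.49 and 4.36 in hypoxia roots (1.32 ± 0.26, adjusted p = 0.0171). CHR23, an ATPase of chromatin remodeling complexes, had 6.05, 6.89 and 7.19 in combination roots, against 5.60, 5.05 and 5.69 in hypoxia roots (1.26 ± 0.26, adjusted p = 0.0232). In both genes combination replicate 1 was the lowest of its group and, as the choice required, lay above every hypoxia array.

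The other rises in the first 10 included genes of growth control, RNA decay and heat tolerance (HSA32, 1.22). The flavonoid pathway protein CHIL rose by 1.4 ± 0.32 (adjusted p = 0.0345). The helicases RECQSIM and RECQ4B rose by 1.07 ± 0.22 and 1.02 ± 0.21, RAPTOR2, a partner of the TOR growth kinase, by 1.07 ± 0.26, and RRP41, a core subunit of the RNA exosome, by 1.01 ± 0.19. QQT2, a GTP-binding protein required for the first embryonic divisions, had 8.47, 8.95 and 9.12 in combination roots, against 7.81, 7.91 and 7.73 in hypoxia roots. Its rise of 1.03 ± 0.16 (adjusted p = 0.00786) was the only one of the 10 that passed in each of the 6 fits without 1 array. None of the 10 passed with the 6 arrays alone, where their adjusted p ran from 0.087 to 0.176.

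**Figure D1:**
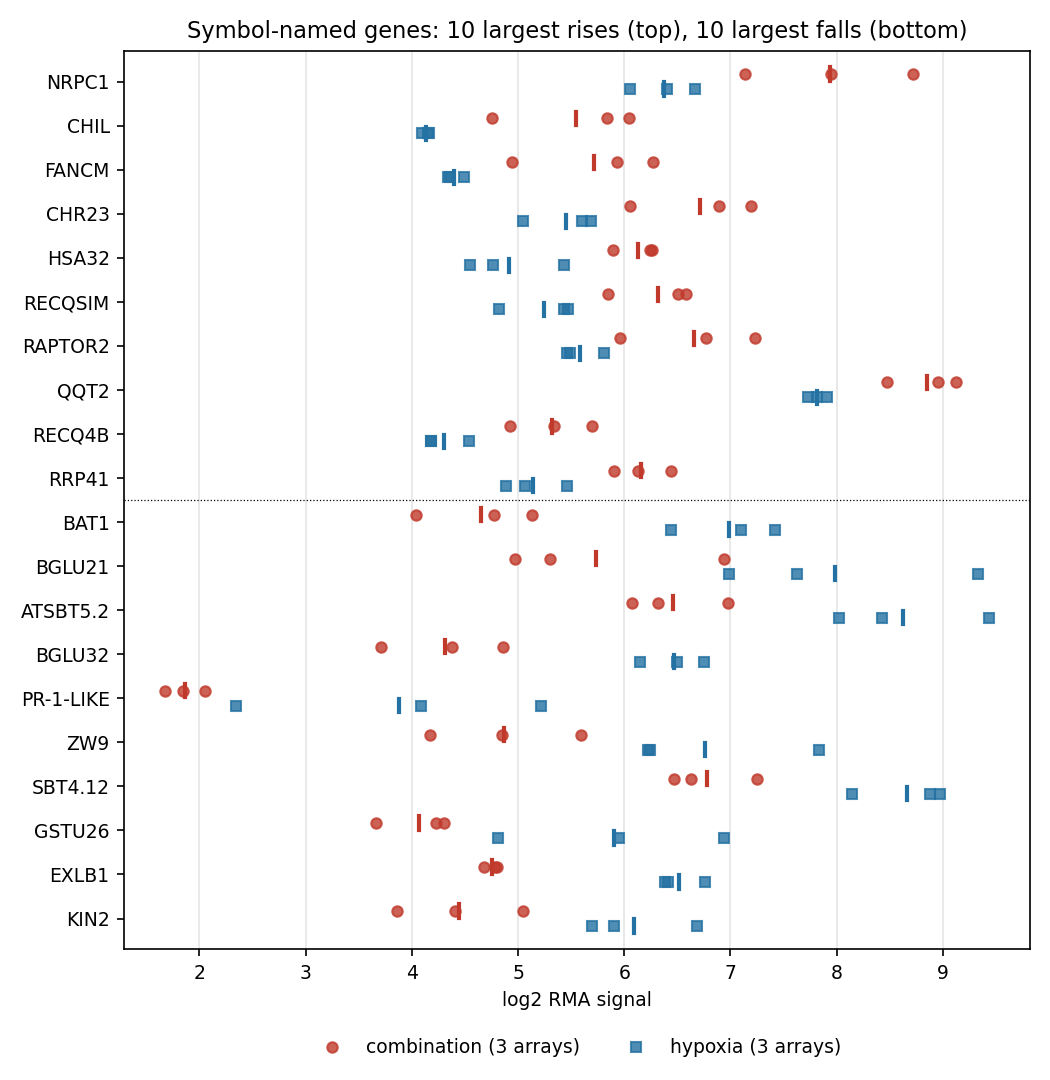
Log2 RMA signal of the symbol-named genes with the 10 largest rises and 10 largest falls, with 1 point per array, combination (circles) above hypoxia (squares), and the group mean as a bar. That the groups do not overlap was a condition for choosing the 20 genes. The falls span larger distances (BAT1, -2.34) than the rises (NRPC1, 1.56).

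Symbol-named genes with the largest falls included an acyltransferase, a pair of beta-glucosidases and a pair of subtilases. BAT1, an acyltransferase of brassinosteroid metabolism, had 4.77, 4.04 and 5.13 in combination roots, against 7.10, 6.44 and 7.42 in hypoxia roots. It fell by 2.34 on the log2 scale (SE 0.30, adjusted p = 0.00355), a 5.05-fold difference. BGLU32, a beta-glucosidase, had 4.38, 3.71 and 4.86 in combination roots, against 6.75, 6.5 and 6.15 in hypoxia roots, and it fell by 2.15 (SE 0.30, adjusted p = 0.00484). In both genes the gap between the groups was wider than the range within either.

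EXLB1, an expansin-like protein of the family that loosens cell walls, had 4.68, 4.80 and 4.78 in combination roots, against 6.76, 6.38 and 6.41 in hypoxia roots. Its fall of 1.76 (SE 0.22, adjusted p = 0.00344) came with an SD of 0.06 in combination roots. WRKY22, a transcription factor of immune and submergence responses, had 7.03, 6.94 and 6.67 in combination roots, against 8.18, 8.54 and 8.36 in hypoxia roots (-1.48 ± 0.17, adjusted p = 0.00154). BAT1, BGLU32, EXLB1 and WRKY22 passed in each of the 6 fits without 1 array and with the 6 arrays alone (adjusted p between 0.0158 and 0.0452). ATSBT5.2, a secreted subtilisin-like protease, fell by 2.17 (SE 0.31) and passed in each of the 6 fits, but with the 6 arrays alone its adjusted p was 0.0726.

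The other falls in the first 10 passed in at most 3 of the 6 fits without 1 array. BGLU21, a beta-glucosidase that releases the coumarin scopoletin from its glucoside in roots, had 4.97, 5.30 and 6.94 in combination roots, against 7.63, 9.33 and 6.99 in hypoxia roots. The highest combination array was thus almost level with the lowest hypoxia array, although the mean fell by 2.25 (SE 0.53, adjusted p = 0.0392). PR-1-LIKE, a relative of the pathogenesis-related protein PR-1, had 1.85, 1.68 and 2.05 in combination roots, at the dim end of the array, against 2.34, 4.09 and 5.22 in hypoxia roots. The subtilase SBT4.12 fell by 1.88 (SE 0.36), the glutathione S-transferase GSTU26 by 1.83 (SE 0.42), ZW9 by 1.89 (SE 0.41) and KIN2, a small protein induced by cold and abscisic acid, by 1.65 (SE 0.35). Several of these genes have close paralogs, and probes may take up signal from a paralog's transcript.

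Locus-coded genes carried the largest changes of all. They are given by code with no function, since no table used here describes them. The exceptions are AT2G21640 (UPOX), AT2G21045 (HAC1) and the locus codes that are members of the gene lists. AT4G12545 had 3.36, 2.99 and 3.62 in combination roots, against 6.84, 7.88 and 7.70 in hypoxia roots. It fell by 4.15 (SE 0.26, adjusted p = 1.55e-05), a 17.8-fold difference and the largest change of any gene. AT3G05950 had 4.57, 5.04 and 4.70 in combination roots, against 9.63, 8.11 and 9.0 in hypoxia roots, and AT5G19890 had 7.25, 4.87 and 5.02, against 10.70, 9.30 and 9.17. They fell by 4.14 (SE 0.44) and by 4.01 (SE 0.54), differences of 17.7-fold and 16.1-fold, and in AT5G19890 combination replicate 1 stood well above the other two.

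AT4G00910, AT4G15160, AT5G19700, AT4G19750 and AT2G18980 fell by 3.94, 3.53, 3.29, 3.09 and 3.07, and AT2G19970 and AT5G26130 by 2.82 and 2.74. The hypoxia arrays of AT2G19970 were 5.62, 8.42 and 8.74, with the first far below the other two. Of these 10 falls, AT4G12545, AT3G05950 and AT5G19700 passed with the 6 arrays alone (adjusted p = 0.00468, 0.00661 and 0.0158), and 7 passed in each of the 6 fits without 1 array.

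The largest rise was that of AT1G64590, with 9.29, 10.53 and 10.06 in combination roots, against 5.44, 6.79 and 8.54 in hypoxia roots (3.04 ± 0.56, adjusted p = 0.0139). Its hypoxia arrays lay far apart, the highest below every combination array, as the choice of these genes required. It passed in 3 of the 6 fits without 1 array. AT4G09750 rose by nearly as much with a tighter spread, with 6.71, 7.21 and 7.30 in combination roots, against 4.85, 4.28 and 3.82 in hypoxia roots (2.75 ± 0.24, adjusted p = 0.000442). AT3G52740 had 6.21, 6.71 and 7.09 in combination roots, against 4.35, 4.80 and 4.47 in hypoxia roots (2.13 ± 0.23, adjusted p = 0.00112). AT2G07721, AT3G01311, AT4G03292, AT3G49400, AT3G57770 and AT5G38910 rose by 1.92, 1.88, 1.74, 1.72, 1.70 and 1.65. AT3G57770 has a second row in the table, and with that dimmer row its change was -0.06. AT5G38910 was among the strongest signals, with 11.90, 12.64 and 12.24 in combination roots, against 9.95, 10.17 and 11.71 in hypoxia roots, and it passed in 2 of the 6 fits. With UPOX (AT2G21640), AT4G09750, AT3G52740, AT2G07721 and AT3G49400 passed in each of the 6, and with the 6 arrays alone AT1G64590 and AT5G38910 had adjusted p of 0.114 and 0.156.

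The 30 genes that passed with the 6 arrays alone did so without any other roots in the fit, and some are named here after their values were seen. They were 4 genes with a symbol and 26 locus codes, and 27 of the 30 also passed in each of the 6 fits without 1 array. AT2G43535 had 4.08, 3.72 and 4.16 in combination roots, against 6.45, 6.49 and 5.60 in hypoxia roots (-2.19 ± 0.22), and AT1G44020 had 4.57, 4.53 and 4.99, against 6.61, 6.73 and 6.18 (-1.81 ± 0.19). AT4G14970 had 5.73, 6.07 and 6.24 in combination roots, against 4.73, 4.17 and 4.38 in hypoxia roots (1.59 ± 0.17). AT1G18560 had 6.66, 6.91 and 6.76 in combination roots, against 5.76, 5.66 and 5.60 in hypoxia roots, a rise of 1.1 ± 0.14. In each of these 4 genes the groups lay apart by more than the range within either.

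**Figure D2:**
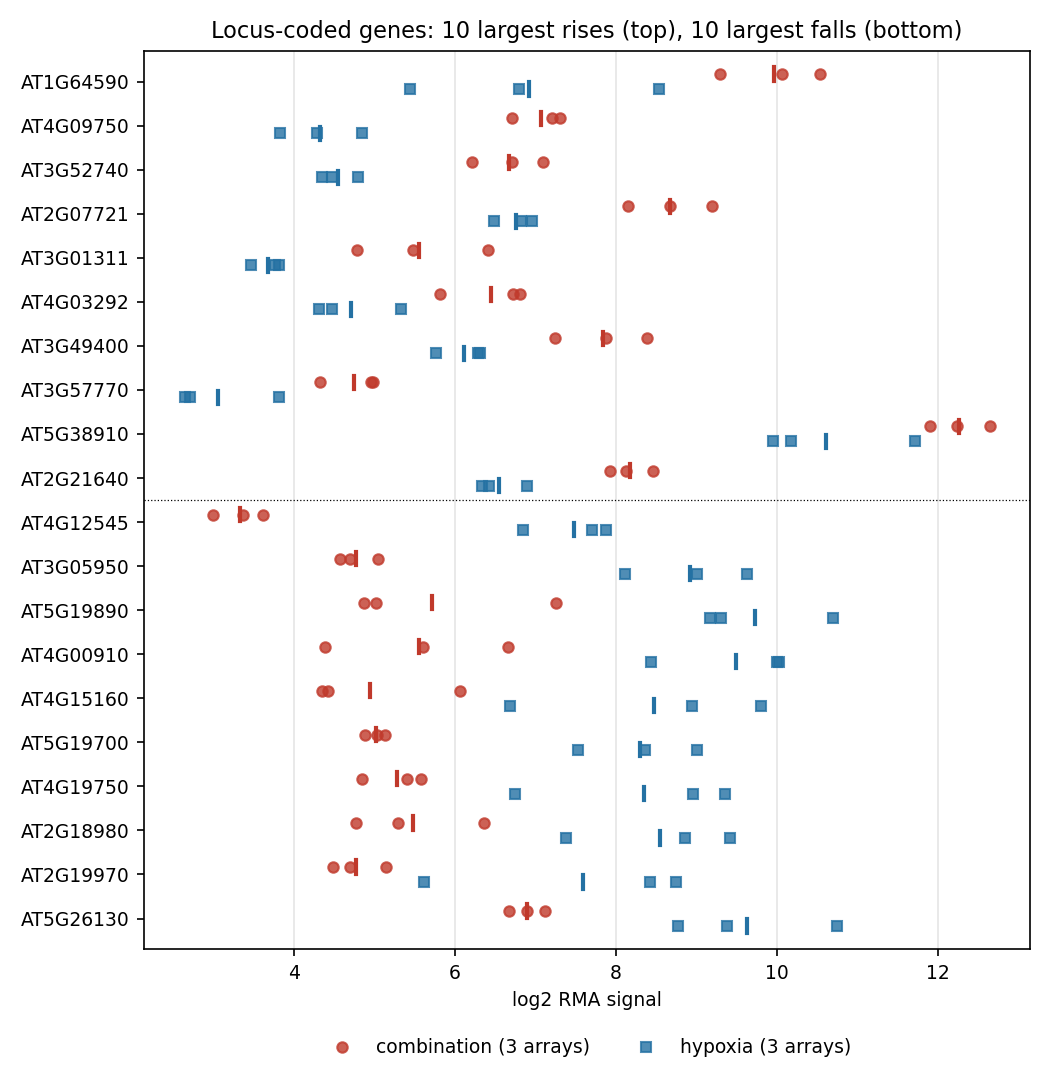
Log2 RMA signal of the locus-coded genes with the 10 largest rises and 10 largest falls, with 1 point per array, combination (circles) above hypoxia (squares), and the group mean as a bar. AT4G12545 and AT3G05950 (-4.15 and -4.14) have combination arrays close together, while the hypoxia arrays of AT1G64590 run from 5.44 to 8.54.

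The share of genes that rose was larger in each longer class of gene length. Length here is the span of a gene from start to end in RefSeq (TAIR10.1), introns included, and it was examined after the largest rises had been seen to be long genes. The 311 rises had a median length of 3221 bases, against 1736 for the falls with a length and 1912 for all genes. Of genes over 5000 bases 80 of 765 rose (10.5%) and 2 fell (0.261%), whereas of the 3108 genes of up to 1000 bases 22 rose (0.708%) and 47 fell (1.51%). The median change climbed with each length class, from -0.09 for genes of up to 1000 bases through -0.06, 0.03, 0.08 and 0.15 to 0.27 for genes over 5000 bases. Of the 765 longest genes 632 (82.6%) were above 0 in combination minus hypoxia, where 49.4% of all genes were.

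The long genes stood above all genes in each of the 9 pairs of 1 combination and 1 hypoxia array. The median of genes over 5000 bases stood above that of all genes by 0.13 to 0.47 in these differences, and by 0.20 to 0.33 with any 1 array left out. Of the 42 rises that passed in each of the 6 fits without 1 array, 10 (23.8%) were over 5000 bases, against 1 of the 11 rises that passed with the 6 arrays alone (9.09%, AT4G14970). The 0.13 was that of combination replicate 1 minus hypoxia replicate 1, and the 0.47 that of combination replicate 2 minus hypoxia replicate 2. At the short end the arrays differed less clearly, since genes of up to 1000 bases deviated from their mean over 12 arrays by a median of 0.08, 0.00 and -0.01 in combination roots, against 0.04, 0.22 and 0.07 in hypoxia roots. Genes over 5000 bases also had stronger signals, with a median of 7.32 over the 12 arrays, against 4.97 for all genes. Among genes with a mean of at least 7, 49 of 444 over 5000 bases rose (11.0%), against 74 of 3213 shorter ones (2.30%), and 2 of 444 (0.450%) fell, against 94 of 3213 (2.93%). The same was measured for arsenate without hypoxia, where 24.6% of genes over 5000 bases rose and 3.79% fell in arsenic minus control, beside 8.34% and 9.58% of all genes. The part of signal level in the length pattern was not tested beyond this, and its cause was not tested.

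**Figure D3:**
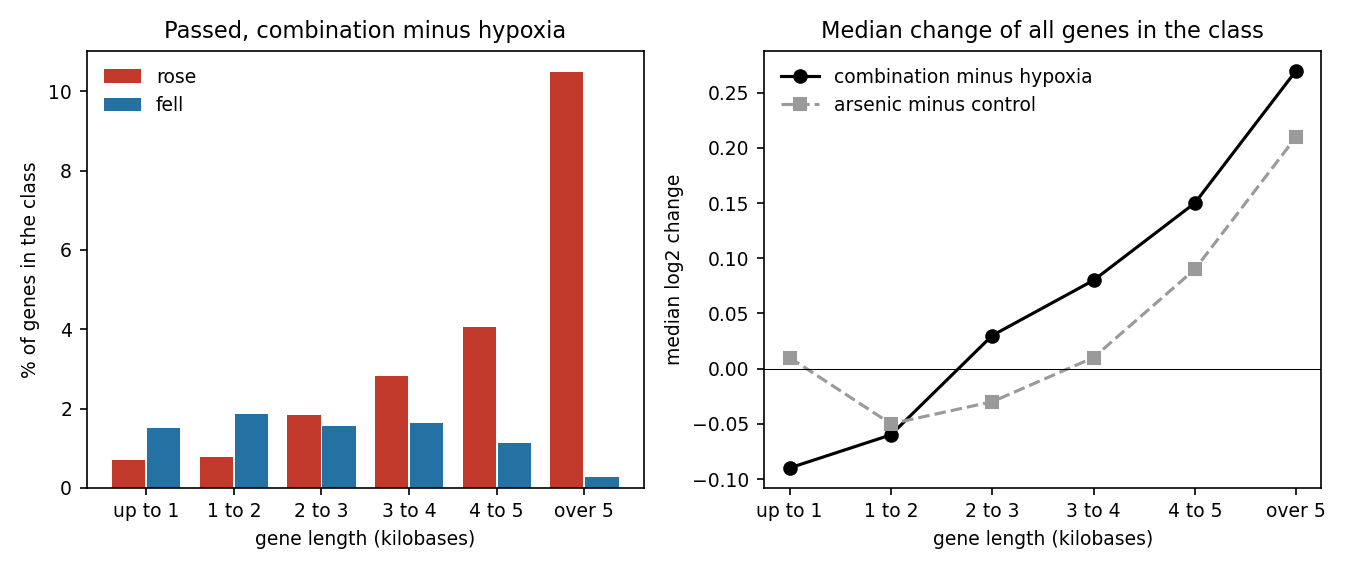
Left, percent of genes in each length class that rose or fell in combination minus hypoxia; right, median log2 change of all genes in the class for combination minus hypoxia (circles) and for arsenic minus control (squares), with gene length in kilobases on the x axis. The share of rises reaches 10.5% above 5 kilobases, and the median change reaches 0.27 and 0.21.

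The families that hold the largest rises were formed from symbols after the values had been seen, so their counts are descriptions. Of 17 measured subunits of nuclear RNA polymerases 4 rose and none fell, with a family median of 0.16. The 4 were NRPA1 and NRPA2, the large subunits of RNA polymerase I (0.96 ± 0.17 and 0.79 ± 0.18), and NRPC1 and NRPC2, those of RNA polymerase III (1.56 ± 0.31 and 0.75 ± 0.18). They are 4 of the 5 members over 5000 bases, and none of the 12 shorter subunits passed. NRPD2B, the fifth long member, was dim and had a change of -0.49 (adjusted p = 0.472). Of 10 chromatin remodeling genes 4 rose, namely CHR23, CHR24 (0.93 ± 0.15), CHR17 (0.74 ± 0.17) and ATRX, a helicase that deposits histone H3 variants (0.61 ± 0.14). All 10 were above 0, with a median of 0.45, and they ranged from 3628 to 9937 bases.

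Members of some smaller families also rose. RECQ4B and RECQSIM rose among 4 RECQ helicases, with 0.76 ± 0.21 for RECQ4A (adjusted p = 0.0692) and 0.19 ± 0.17 for RECQI1. GYRB1 and GYRB2, gyrase subunits of the organelles, rose by 0.85 ± 0.21 and 0.93 ± 0.20, and the third measured member GYRB3 had -0.01. Both RAPTOR genes rose, RAPTOR1 by 0.58 ± 0.14 (adjusted p = 0.0481). ICU2, the catalytic subunit of DNA polymerase alpha, rose by 0.83, and ILA and SWEETIE, whose genes span 18607 and 16684 bases, rose by 0.75 and 0.72. The DNA topoisomerases TOPII and TOP3A, of 6757 and 7015 bases, did not pass (-0.19 ± 0.30 and 0.59 ± 0.24, adjusted p = 0.777 and 0.199). These families stand beside the 10.5% of all genes over 5000 bases that rose, and nothing particular to them was tested.

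Families with falls had other members. Of 32 serine carboxypeptidase-like genes scpl28, scpl20 and scpl31 fell (-1.63, -1.44 and -1.29), none rose, and the median was -0.19. The 3 are 9.38% of the family, where 1.58% of all genes fell. TBL33 and TBL34, which acetylate xylan in the cell wall, fell among 25 TRICHOME BIREFRINGENCE-LIKE genes (-0.95 and -0.90), and none rose. The 2 are 8.0% of the family, where 1.58% of all genes fell. Of the 25 genes 21 were below 0, where 8368 of all 16550 genes were. This family and the AGAMOUS-like one were also formed after the values had been seen. Of 67 AGAMOUS-like genes none rose and 3 fell, PHE1, AGL24 and AGL21. The 3 are 4.48% of the family, where 1.58% of all genes fell and 3.46% passed in either direction. AGL24 was dim, with means of 2.34 in combination roots and 3.31 in hypoxia roots (-0.97), and AGL21, a MADS-box factor of lateral root development, had 7.77 and 8.36 (-0.59). YUC6, an enzyme of auxin synthesis, fell by 1.22 (adjusted p = 0.0312), and PUB22 and CML41, a ubiquitin ligase and a calmodulin-like protein of immune responses, fell by 0.94 and 0.88.

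Of 26 gene lists for pathways of arsenic, hypoxia and root physiology, 105 of 544 entries had a row of their own and 5 lists had none, among them phosphate starvation and the aquaporins. Of the 103 distinct genes 2 rose and 3 fell, a share of 4.85% near the 3.46% of all genes. They were HSA32, UPOX, HAC1, GSTU26 and KIN2. Without hypoxia replicate 1, 9 rose and 8 fell (16.5%, against 5.37% of all genes), and without combination replicate 2 or hypoxia replicate 2 a single gene passed. Most entries of these lists thus have no value here.

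HAC1 (AT2G21045), the root arsenate reductase that turns arsenate into the arsenite a root can export, had 9.62, 9.03 and 9.20 in combination roots, against 10.26, 10.76 and 10.40 in hypoxia roots. It fell by 1.19 (SE 0.21, adjusted p = 0.011), passed in 4 of the 6 fits without 1 array, and had an adjusted p of 0.0757 with the 6 arrays alone. Arsenic roots averaged 9.55 ± 0.34 and control roots 10.29 ± 0.14, a fall of 0.74 (adjusted p = 0.0266), and the difference between these changes did not pass (-0.44 ± 0.29, adjusted p = 0.504). WRKY6, which represses arsenate uptake, was the other measured member of the arsenic list, with 0.22 ± 0.21 (adjusted p = 0.619).

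In the list of sulfate assimilation, glutathione and phytochelatin genes 5 of 35 entries were measured, and none of the 5 passed. They were APS3, APS4, SIR, BGLU28 and AT1G04770, so most of the list has no value here and nothing is said of the whole pathway. APS4, an ATP sulfurylase, had 8.69, 7.91 and 7.92 in combination roots, against 7.46, 7.23 and 7.52 in hypoxia roots (0.77 ± 0.21, adjusted p = 0.0633). Sulfite reductase, SIR, had 9.01, 8.54 and 9.15 in combination roots, against 9.75, 9.52 and 9.38 in hypoxia roots (-0.65 ± 0.16, adjusted p = 0.0513). Both missed the threshold, and they lay in opposite directions. Their arrays did not overlap, as in 20.3% of all genes, and with the 6 arrays alone limma's adjusted p was 0.202 and 0.216. Of 12 glutathione S-transferases GSTU26 fell, 10 were below 0 and the median was -0.27.

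The core hypoxia genes, which act in fermentation and low-oxygen signalling, had no member that passed with all arrays. Of the 18 measured of 35, 17 were below 0 in combination minus hypoxia, with a median of -0.43 and a range from -1.32 to 0.02. CML38, a calmodulin-like protein of hypoxia granules, had 6.68, 6.42 and 6.95 in combination roots, against 7.87, 8.22 and 7.91 in hypoxia roots (-1.32 ± 0.73, adjusted p = 0.354). Its groups did not overlap, and with the 6 arrays alone its adjusted p was 0.0524. AlaAT1 and PDC2, enzymes of anaerobic alanine and ethanol production, had -0.14 and -0.08. Hypoxia replicate 1 was the lowest hypoxia array in 14 of the 18, as in AT2G17850, with 8.00, 8.89 and 8.96 in combination roots, against 8.54, 10.34 and 10.12 in hypoxia roots. Without that array AT2G17850, AT5G65207 and AT5G66985 fell by 1.61, 1.35 and 0.96 (adjusted p = 0.006, 0.0131 and 0.0305), and the median was -0.94. Without any other 1 array none of the 18 passed, the medians ran from -0.63 to -0.21, and 12 to 18 genes were below 0. In the fit without hypoxia replicate 1 the 3 were 16.7% of the list, and 2.69% of all genes fell.

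The number of heat shock genes that passed rested on 1 array, hypoxia replicate 1. With all arrays 13 of the 15 measured were above 0, with a median of 0.50, and 1 rose. Hypoxia replicate 1 was the highest hypoxia array in 14 of the 15. AT5G48570 had 7.81, 7.50 and 7.60 in combination roots, against 8.36, 5.54 and 5.69 in hypoxia roots, and Fes1A, a cochaperone, had 7.94, 8.52 and 8.48, against 8.57, 6.55 and 6.59. Without that array 7 of the 15 rose (46.7%, where 2.67% of all genes rose), with a median of 1.4, and without both arrays numbered 1 again 7 rose, with a median of 1.25. These were HSA32, Fes1A, Hop3, AT5G48570, AT1G07400, AT2G29500 and AT5G51440 in both fits. Without any other 1 array at most 1 passed, with medians from 0.38 to 0.66. HSA32, a protein that maintains acquired heat tolerance, had 5.89, 6.24 and 6.26 in combination roots, against 5.43, 4.76 and 4.55 in hypoxia roots (1.22 ± 0.24, adjusted p = 0.0174). The transcription factor DREB2C had 1.18 and the cochaperones Fes1A and Hop3 had 1.07 and 0.97 with all arrays, with adjusted p from 0.118 to 0.180. In roots without hypoxia 13 of the 15 rose with arsenate, where 8.34% of all genes did, with a median of 2.32. In the test of the difference between the steps 6 of the 15 passed, where 2.76% of all genes did. The 6 all had the smaller change in hypoxic roots. In each of the 6, hypoxia roots averaged above control roots and combination roots below arsenic roots. AT5G51440 averaged 3.51 in control, 7.14 in hypoxia, 8.32 in combination and 9.27 in arsenic roots, and AT5G37670 averaged 3.25, 3.95, 4.45 and 5.57. Without 1 combination or hypoxia array 4 to 9 of the 15 passed in the test of the difference (8 without hypoxia replicate 1), all below 0. In these fits 1.52% to 3.03% of all genes passed in it.

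UPOX (AT2G21640), a mitochondrial protein induced by oxidants, was the 1 member of 6 that rose in the mitochondrial dysfunction list. It had 8.46, 8.13 and 7.92 in combination roots, against 6.90, 6.42 and 6.33 in hypoxia roots (1.62 ± 0.28, adjusted p = 0.00966), and it passed with the 6 arrays alone (adjusted p = 0.0452). Arsenic roots averaged 9.37 ± 0.64 and control roots 4.16 ± 0.19, a rise of 5.21. The list had a median of 0.32 in hypoxic roots and 3.05 in the others, where all 6 rose, beside 8.34% of all genes. In the test of the difference 5 of the 6 passed, beside 2.76% of all genes. AT5G51440 is a member of this list and of the heat shock list, and it is counted in both. Hypoxia replicate 1 was the highest hypoxia array in 4 of the 6, as in NDB2, an alternative NADH dehydrogenase, with 7.49, 7.61 and 7.42 in combination roots, against 7.62, 6.60 and 6.32 in hypoxia roots. Without that array NDB2 and AT5G51440 also rose (1.05 and 1.66, adjusted p = 0.0123 and 0.00855) and the median was 0.61. In the test of the difference 5 of the 6 again passed, beside 2.92% of all genes in that fit. Without any other 1 array of these groups 1 of the 6 rose, with medians from 0.16 to 0.41.

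**Figure D4:**
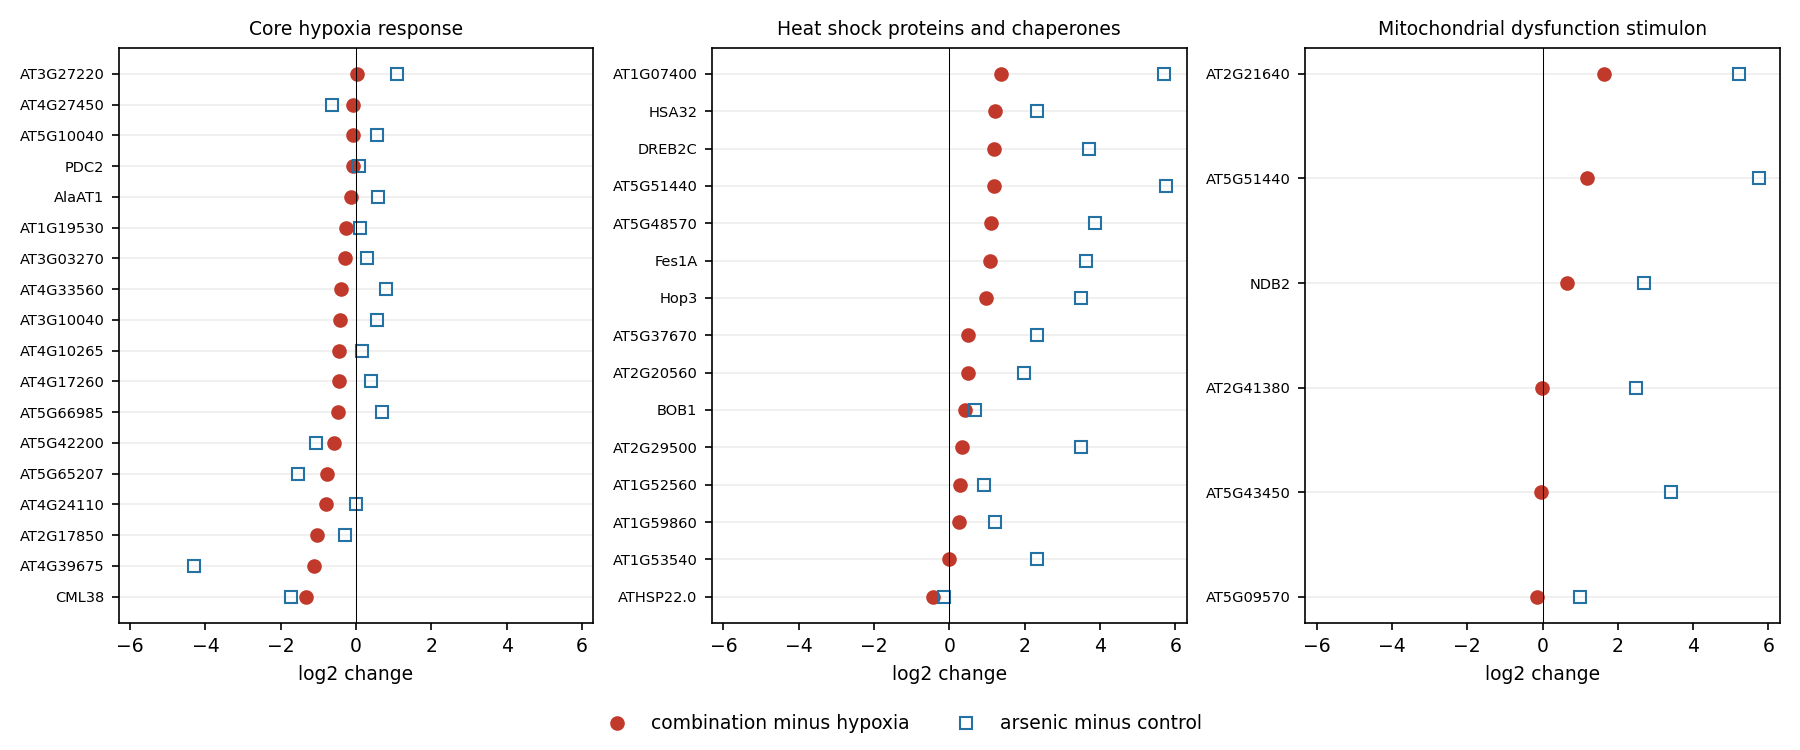
Log2 change of each measured member of 3 gene lists, with combination minus hypoxia as filled circles and arsenic minus control as open squares. In the heat shock and mitochondrial lists most squares lie to the right of the circles (medians 2.32 and 3.05, against 0.50 and 0.32), and 17 of the 18 core hypoxia genes lie left of 0 in combination minus hypoxia. The circles include hypoxia replicate 1, without which the medians of the circles were 1.4, 0.61 and -0.94 in the heat shock, mitochondrial and core hypoxia lists. Without any other 1 array these medians ran from 0.38 to 0.66, from 0.16 to 0.41 and from -0.63 to -0.21.

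The iron, root hair and auxin lists had no call. Iron deficiency genes had 5 of 6 below 0 with a median of -0.45, and root hair genes 3 of 3 below 0 with a median of -0.49, as in EXPA7, a root hair expansin (-0.37 ± 0.24, adjusted p = 0.433). Of 6 auxin genes GH3.3, which conjugates auxin, had 1.5 ± 0.56 and LBD29, a factor of lateral root initiation, had -1.61 ± 0.50, neither past the threshold. In LBD29 combination replicate 1 had 7.28, level with the hypoxia arrays (7.16, 7.28 and 7.18), while the others had 4.59 and 4.91. Of 63 genes of the plastid genome 59 were below 0 with a median of -0.23, where 8368 of all 16550 genes were below 0. None of the 63 rose and 1 fell, psbJ, a small subunit of photosystem II (-0.64), where 1.58% of all genes fell.

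The arsenate step could be set beside the same step without hypoxia, since these comparisons share no array. Their log2 changes are thus separate, but their calls use the same spread of each gene, pooled over the 4 groups. A gene with a small spread passes more readily in both, so the overlaps of calls given here are descriptions. In arsenic minus control 2965 genes passed (17.9%), 1380 up (8.34%) and 1585 down (9.58%) (1803 and 1228 once every array was re-centred on its median). Of the 311 rises in hypoxic roots 190 (61.1%) also rose there, which is 13.8% of the 1380, and of the 262 falls 146 (55.7%) also fell, which is 9.21% of the 1585. In the opposite direction 1 rise and 8 falls passed. The 311 rises had a median of 0.84 in hypoxic roots and 0.65 in the others, and the 262 falls -1.13 and -0.85. Seen from the other side the 1380 rises of arsenic minus control had a median of 0.84 there and 0.34 in hypoxic roots, and the 1585 falls -0.91 and -0.27. Each set was chosen in 1 of the comparisons, so the size of its median there is raised by the choice. Over all genes the changes of both steps correlated at r = 0.464, a description across genes, which are not independent.

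AT4G12545 is an example of a change shared by both steps. It averaged 2.91 ± 0.17 in arsenic roots and 7.70 ± 0.30 in control roots, a fall of 4.79, and the difference between the steps was 0.64 ± 0.37 (adjusted p = 0.422). AT4G09750 rose by 3.54 and AT3G52740 by 2.96 in arsenic minus control, and neither passed in the test of the difference (adjusted p = 0.274 and 0.222).

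That test, the interaction, was passed by 457 genes (2.76%), 221 with a positive value (1.34%) and 236 with a negative one (1.43%), and 391 of these had passed in arsenic minus control but not in combination minus hypoxia. There were 53 genes (0.320%) that passed both in combination minus hypoxia and in the interaction. In 35 of them the changes had opposite signs (15 rises and 20 falls in hypoxic roots), in 14 the same sign with the smaller size in hypoxic roots, and in 4, all falls, the same sign with the larger size. The 53 were selected partly on the hypoxic step, so the split is a description.

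Only 9 of the 53 passed in both steps in opposite directions, 8 of them falls in hypoxic roots. Besides EXLB1, AT2G30660 and AT5G39150, the falls were AT3G58060 (-1.56 in hypoxic and 1.25 in other roots), AT5G46730 (-1.13 and 0.96), AT2G29870 (-1.09 and 0.67), AT5G39130 (-1.09 and 0.97) and AT1G65481 (-1.05 and 0.82). The rise was AT3G23740 (0.70 and -0.59). The 4 falls that were larger in hypoxic roots were AT5G19890, WRKY22, AT3G29970 and AT2G41130. AT3G29970 had its strong signals in hypoxic medium, with 9.93, 9.71 and 9.69 in combination roots, against 10.68, 11.02 and 10.63 in hypoxia roots, while arsenic roots averaged 2.97 and control roots 3.1. It fell by 1.00 (SE 0.15, adjusted p = 0.00553) in combination minus hypoxia.

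**Figure D5:**
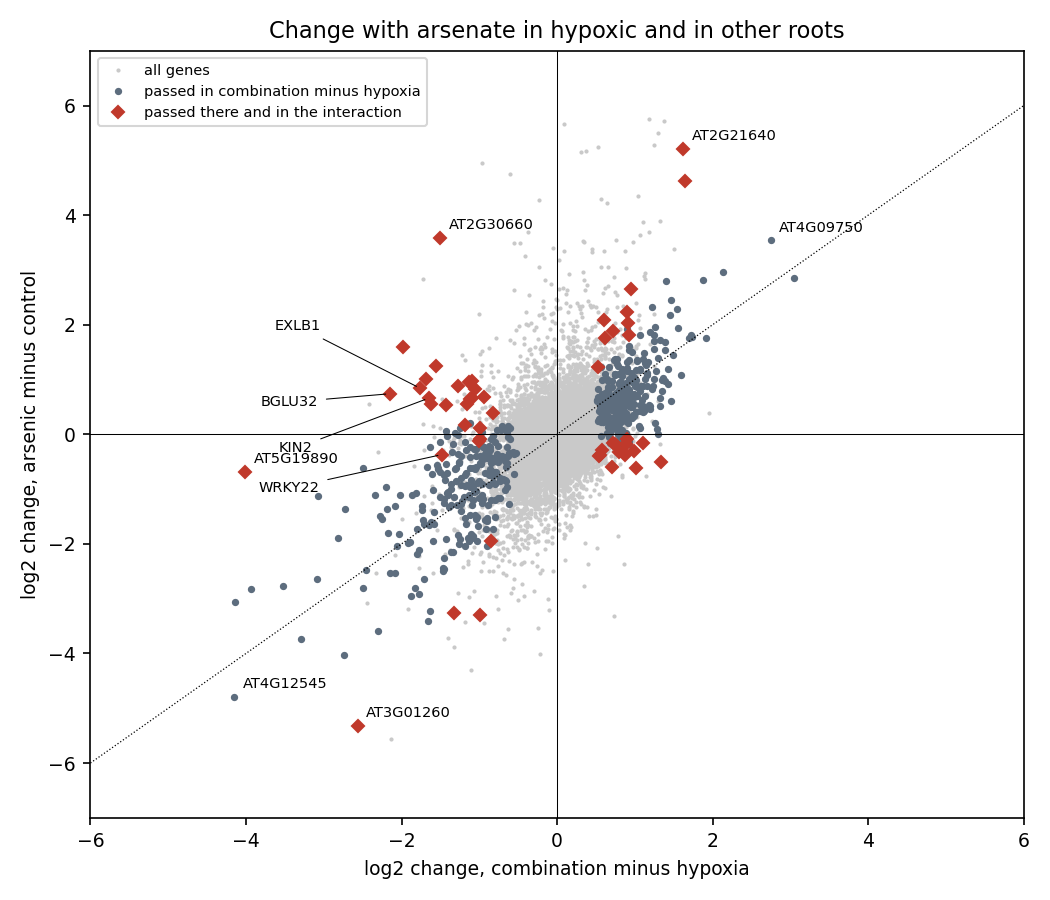
Log2 change with arsenate in hypoxic roots (x axis, combination minus hypoxia) and in other roots (y axis, arsenic minus control), 1 point per gene, with the dotted line marking equal change. AT4G12545 and AT4G09750 lie near the line, and the 53 genes that also passed in the interaction (diamonds) lie away from it, AT2G30660 and BGLU32 with opposite signs.

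EXLB1 fell in hypoxic roots and was higher with arsenate in the others, where arsenic roots averaged 7.78 ± 0.30 and control roots 6.94 ± 0.47, a rise of 0.84 (adjusted p = 0.0202). The difference between its steps was -2.61 ± 0.32 (adjusted p = 0.00119). BGLU32 had 3.25 ± 0.56 in arsenic roots and 2.51 ± 0.16 in control roots, a difference of 0.74 that did not pass (adjusted p = 0.118), so that its highest mean was in hypoxia roots, and its interaction was -2.90 ± 0.43 (adjusted p = 0.00411). KIN2 (-2.32 ± 0.49) and WRKY22 (-1.10 ± 0.24) also passed. WRKY22 averaged 6.88 ± 0.19 in combination roots and 8.36 ± 0.18 in hypoxia roots, with 7.10 ± 0.20 in arsenic roots and 7.47 ± 0.19 in control roots, so that it was highest in hypoxia alone.

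AT2G30660 had the most negative interaction of the 53 (-5.09 ± 0.41, adjusted p = 5.54e-05). It had 6.27, 5.60 and 5.95 in combination roots, against 7.02, 7.60 and 7.71 in hypoxia roots, whereas arsenic roots averaged 7.27 ± 0.42 and control roots 3.68 ± 0.49. It was thus high with either treatment alone and lower with both. AT3G01260 ran the other way, with 5.55, 5.29 and 5.57 in combination roots, against 7.75, 8.34 and 7.99 in hypoxia roots, and 4.78 ± 0.77 in arsenic roots against 10.10 ± 0.01 in control roots. It fell in both steps, by 2.56 in hypoxic roots and 5.32 in the others, and its interaction was 2.76 ± 0.42 (adjusted p = 0.00448).

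Among genes with a symbol only LOJ and CRR41 passed both tests with a positive interaction. LOJ, a pentatricopeptide repeat protein, had 5.67, 5.97 and 5.56 in combination roots, against 4.96, 4.89 and 4.95 in hypoxia roots (0.80 ± 0.18, adjusted p = 0.0339), with -0.32 in arsenic minus control. CRR41, a chloroplast protein of NDH assembly, was near the dim end, with 3.87, 4.08 and 3.89 in combination roots, against 3.28, 3.49 and 3.41 in hypoxia roots (0.55 ± 0.14, adjusted p = 0.0452). TRM19 rose in both steps, by 0.60 ± 0.14 in hypoxic roots and by 2.09 in the others.

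Some genes that passed were neighbours. In RefSeq gene order 17 pairs of adjacent called genes moved the same way, 11 pairs up and 6 down. Among them were AT3G49400 and AT3G49410, AT2G07719 and AT2G07721, which rose by 0.96 and 1.92, and AT1G51830 and AT1G51840, which fell by 1.61 and 1.43. Whether such pairs share probes was not tested. Adjacent called genes that moved in opposite ways were not counted. Of all genes 1.88% rose and 1.58% fell. How many pairs such shares give when scattered was not worked out, so the 17 pairs are a description.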

How the data were processed

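Total root RNA was hybridised to Affymetrix arrays. The deposited values are log2 signals, made by the authors with RMA, per the submitters' processing notes, which also name Transcriptome Analysis Console 3.1 and Affymetrix Expression Console (1.4, 1.4.1). They were used as deposited; scanner values were not used. The precision is limited by the 3 arrays per group.

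Of 38408 rows 16722 named 1 gene, 759 several genes and 20927 were not listed in the probe annotation. Of the 16722, 16574 matched RefSeq (TAIR10.1, used for names, gene length and neighbour order) and 148 did not. Of 146 genes with several rows the one with the highest mean over 12 arrays was kept, leaving 16550 genes. The array's genome build is not given in the sources used here, so no coordinates are printed, and sequences were not used here.

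limma 3.58.1 (R 4.3.3, lmFit, eBayes, two-sided) was fitted to all arrays without a block, with Benjamini-Hochberg adjustment per comparison. In simulated data for combination minus hypoxia (16550 genes) it recovered 10, 32, 49 and 50 of 50 genes changed 1.5-, 2-, 4- and 8-fold and called 9 of 16350 unchanged ones. The simulated noise was independent between genes and arrays, with the same spread in every group. No simulated array stood apart as some real ones did, so these counts are not error rates of the real calls.

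Members, lists and alternatives were chosen with earlier results of these data known. Named genes were the 10 largest non-overlapping rises and falls with a symbol and, since no descriptions were at hand, the same for locus codes; up to 3 members of each list; up to 2 of symbol families with 5 or more members of which 10% passed; 5 and 5 genes with the largest interaction; and HAC1 and UPOX. Others were named after their values were seen, and some were left out for length. Locus codes other than HAC1 and UPOX carry no role beyond membership of a gene list. Promoter motifs were not analysed here.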

Additional observations from a re-analysis of the deposited data

Results flagged for a closer look

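The change with arsenate in hypoxic roots differed from that in other roots, by limma's interaction test, in 17 of the named genes, which had also passed in combination minus hypoxia. Each value is combination minus hypoxia, less arsenic minus control, on the log2 scale. Among genes with a symbol it was positive for LOJ (1.12) and CRR41 (0.93). It was negative for BGLU32 (-2.90), EXLB1 (-2.61), KIN2 (-2.32), TRM19 (-1.49) and WRKY22 (-1.10). Among locus-coded genes it was positive for AT3G01260 (2.76), AT2G01900 (2.29) and AT5G47950 (1.92), which fell by more without hypoxia, and for AT3G46480 (1.82) and AT5G05420 (1.63), which rose in hypoxic roots and had negative values, not past the threshold, in the others. It was negative for AT2G30660 (-5.09), AT2G21640 (-3.59), AT5G39150 (-3.57), AT5G19890 (-3.33) and AT5G38910 (-2.98). AT5G39150 had 4.86, 3.09 and 3.76 in combination roots, against 6.29, 5.22 and 6.14 in hypoxia roots, while arsenic roots rose by 1.59 over control roots. In AT5G47950 the highest combination array, 4.78, lay above the lowest hypoxia array, 4.77.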

How the results depend on the processing

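The 573 genes of combination minus hypoxia became 30 with the 6 arrays alone, 325 with all rows of the table fitted and adjusted together, and between 101 and 1000 with 1 array left out; without combination replicate 1 and hypoxia replicate 1 together there were 1220. The last, the fit of all rows and the gene lists without single arrays were chosen after seeing the data. Re-centring (582), a further quantile normalization (617), a trended robust variance (787), a filter on dim genes (792 of 11217) and the lowest row per gene (569) stayed within 1.5 times, and array weights gave 823. The 2965 of arsenic minus control became 4700 with array weights and 1889 to 2492 without 1 array, and the 457 of the interaction became 886 and 213 to 502. Re-centring gave 157 positive and 270 negative interactions, against 221 and 236. With the replicate block the counts were 592, 3067 and 552. Same-numbered combination and hypoxia arrays correlated in their deviations at 0.305, -0.0789 and 0.292. For differently numbered arrays the values were -0.328 to -0.0243, -0.00958 to 0.088 and -0.331 to 0.0915. Arrays numbered 1 and arrays numbered 3 were thus more alike than differently numbered ones, and those numbered 2 were not. The numbers were not taken as pairs because the labels describe the replicates as independent, and an effect shared by a number was not tested. Over the 105 named genes and 16 settings, 1441 of 1672 values kept their direction and side of the threshold, 204 lost the call, 26 gained one and 1 turned, AT3G57770 (-0.06) with its lowest row. Only 57 of the 105 had passed in the main fit, so the 204 lost calls are all from these, and the other genes had no call to lose. The cause of these differences was not tested. The calls rest on 3 arrays per group, and 24 called genes had no group mean of at least 4, where signals are dim.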

Other observations

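In the fit of all 38408 rows, the 20927 that the annotation did not list included 317 that rose and 149 that fell in combination minus hypoxia (2.23%), beside 194 and 146 of the 17481 listed ones (1.94%). What these unlisted rows measure is not known here, so they are not counted as changes in further genes. Among the 1805 genes with a symbol, TRI, a tropinone reductase, fell by 1.45 (limma adjusted p = 0.00544) and SAY1 rose by 0.90 (adjusted p = 0.00786), both in each of the 6 fits without 1 array. GLR2.3 and GLR3.5, 2 of 9 measured glutamate receptor-like channels, moved in opposite directions, -1.37 and 0.80. BETA-VPE, a vacuolar processing protease, fell by 1.06, and MMT, which methylates methionine, rose by 0.82 with a gene length of 7106 bases.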
